A study of Mus musculus with 25 samples.

Results

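The joins described here are all entries of 2 junction tables, one for BRCA1del and one for BRCA1flox cells, both with Tus and a small interfering RNA (siRNA) against BLM. They hold 2225 of the 11867 junctions listed over the whole series and 5 of its 25 libraries. The entries were taken by group alone and not by a measured value. Earlier results of these data were known when the members and the shares were chosen. Mouse embryonic stem cells, grown on a mouse fibroblast feeder, carried, at ROSA26, a reporter cassette of 4 kb with an array of Ter elements and an I-SceI site inside an EGFP gene. Cas9 cut the bait 30 kb from that cassette, Tus and the siRNA were transfected, DNA was taken after 48 h, and joins between the bait end and the cassette were read by LAM-HTGTS, in which DNA joined to a known cut is amplified from a primer beside the cut. The genotypes are written BRCA1del/exon11 and BRCA1flox/exon11 in the labels, so both carry an allele named exon11 and differ in the other one. With Tus and siBLM the labels list 3 samples of BRCA1del and 2 of BRCA1flox. A later comparison adds the 2 groups with Tus and siLuciferase, a control siRNA, which hold 2606 junctions in 5 libraries. For these the labels also list 3 samples of BRCA1del and 2 of BRCA1flox. The sources used here do not say whether a genotype was 1 clone or whether its samples were separate cultures, and the tables hold nothing by which the loss of BLM or the genotype could be checked.

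Tus is a bacterial protein that binds Ter and stops a replication fork arriving from one side. BRCA1 mediates homologous recombination and protects stalled forks, and BLM is a RecQ helicase that unwinds forked DNA and takes apart recombination intermediates. An end that is joined without homologous recombination can be sealed directly (a blunt join), through a few bases that both ends share (microhomology), or with bases that belong to neither (an insertion). The comparison asked whether the genotypes differed in where the bait joined the Tus-bound cassette, in the direction of the joined DNA and in the structure of the join, while BLM was targeted.

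BRCA1del gave 589 joins in run B, 593 in run C and 165 in run D, and BRCA1flox gave 617 in run C and 261 in run D. The joins of a genotype from 1 sequencing run count as a library here. Run B held no BRCA1flox library of this treatment, so its values are printed and the tests use runs C and D only. Within a library nearly every exact join, meaning the same bait end, cassette position, strand and structure, was listed once: 547 of 554 distinct joins in BRCA1del run C and 584 of 586 in BRCA1flox run C, and none more than 2 times. Shares below are therefore shares of different joins, not of how often one join recurred. The commonest read barcode was the same in runs C and D of a genotype and differed between genotypes and in run B. Runs C and D shared 20 fragments (same position, strand and far end) in BRCA1del and 20 in BRCA1flox, while BRCA1del and BRCA1flox of run C shared 39 and BRCA1del runs B and C shared 36. Whether runs C and D of a genotype are separate libraries or 1 library sequenced in 2 runs is not stated. An SD over these runs, or a permutation that counts each as a library, may therefore not measure the spread between separate samples.

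The sequence on the mouse side of every join is the bait. Its last 40 bases before the cut are shown because each join described below ends in them or further in, and the capitals mark a run of 7 bases that the other strand of the Ter element also holds.

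bait end, 5′ to 3′, cut at the right: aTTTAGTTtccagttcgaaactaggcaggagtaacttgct

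The bait was read over 144 bases from the primer to the cut. It was not aligned to a genome here, so its place in the ROSA26 region was not checked and genome coordinates were not used. Positions in the cassette are 1-based and are those of the deposited tables. Of the 6 Ter elements, each 23 bp long, element 1 covered 3049 to 3071, element 2 covered 3077 to 3099 and element 3 covered 3105 to 3127. Element 4 covered 3166 to 3188, element 5 covered 3194 to 3216 and element 6 covered 3222 to 3244, and the I-SceI site ended at 3276. The array window ran from 3025 to 3276, between the left and right parts of EGFP (2637 to 3604). The cassette body ran from 1 to 3616 and a polyA region from 3617 to 3928.

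The joins that recurred most over libraries are shown next by their mouse side, as 30 bases that end at the last bait base, with the bases shared with the cassette in capitals. They are shown for the bases shared at each join and the point at which the bait ended.

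BRCA1del, Ter element 1 at 3068: tgtctttgggaaagagagatataTTTAGTT

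BRCA1del, before Ter element 1 at 3038: tccagttcgaaactaggcaggagtaactTG

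BRCA1del, Ter element 1 at 3049: cagttcgaaactaggcaggagtaacttgcT

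BRCA1flox, Ter element 2 at 3082: ttccagttcgaaactaggcaggagtaACTT

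BRCA1flox, Ter element 2 at 3087: gtttccagttcgaaactaggcaggagtAAC

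BRCA1flox, left of the array at 2775: ttccagttcgaaactaggcaggagtAACTT

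All 6 ran leftward, that is, the joined DNA ran from the join toward position 1. The join at 3068 used the run of 7 bases and left out the last 32 bases of the bait. It was listed 4 times in BRCA1del (1 time in run B, 2 in run C and 1 in run D) and not in BRCA1flox. The joins at 3038 and 3049 were listed 3 times each in BRCA1del, tied with others of 10 joins in all listed 3 times. The join at 3049 kept the whole bait and that at 3038 lost 2 bases. In BRCA1flox the joins at 3082 and 3087 were listed 3 times each and lost 3 and 5 bases of the bait. The join at 2775 was the first by position of 36 joins listed 2 times. Only the join at 3082 was also listed in the other genotype, 2 times.

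The array took most of the joins in the body, and in the shared runs the body as a whole held fewer of the joins in BRCA1del. The body share was 74.9% (441 of 589) in BRCA1del run B, 62.1% (368 of 593) in run C and 60% (99 of 165) in run D, against 68.1% (420 of 617) in BRCA1flox run C and 75.1% (196 of 261) in run D. BRCA1del run B lay between the 2 BRCA1flox libraries, so the 2 genotypes overlapped over all 5 libraries. In runs C and D the mean was 61.0% ± 1.46 in BRCA1del and 71.6% ± 4.97 in BRCA1flox (SD, n = 2 libraries each), a difference of -10.55 percentage points. Over those runs the common odds ratio of BRCA1del over BRCA1flox was 0.691 (95% interval 0.559 to 0.854; exact conditional test stratified by run, adjusted p = 0.00102 over 8 shares). The polyA region held the rest of the joins. Pooled over all libraries the difference fell to -2.75 points and did not pass (adjusted p = 0.176, exact conditional test), and without run D it was -6.01 points (adjusted p = 0.0598, exact conditional test).

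All tests of this kind count junctions and so cover counting error only, and Wilson intervals of shares do the same. An exact two-sided permutation over libraries included run B and took no account of the run, unlike the tests stratified by run. With 3 BRCA1del against 2 BRCA1flox libraries it cannot give a p below 0.1. That smallest value was reached for rightward joins, insertions and the first Ter element, while blunt joins gave 0.2, left-of-array joins 0.3, the body share and microhomology 0.4 each and bait loss 0.6 (exact permutation).

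**Figure D1:**
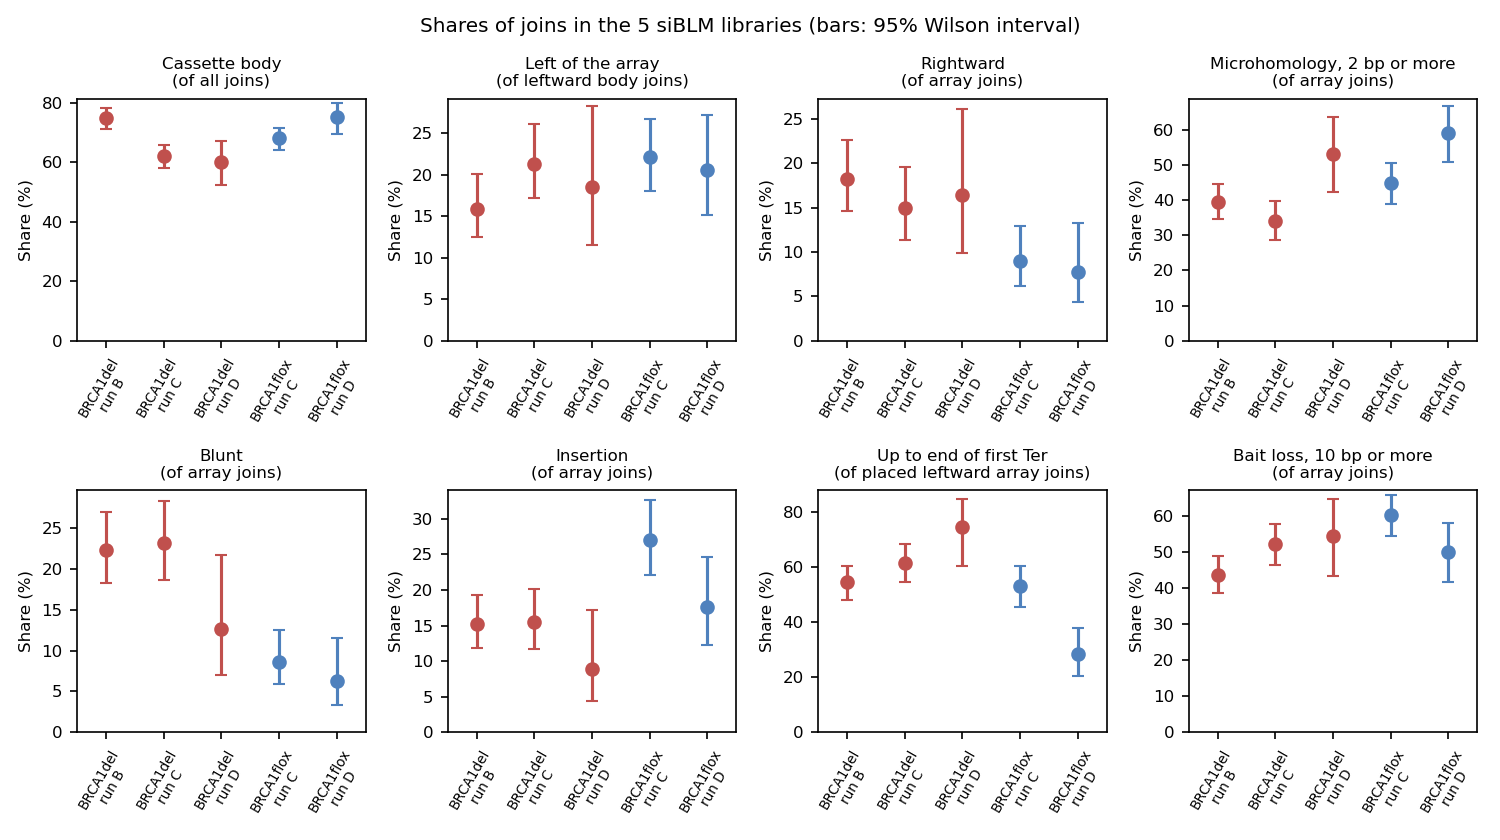
Each panel plots 1 share (percent) for the 5 siBLM libraries, with the point at the share and bars at its 95% Wilson interval; red is BRCA1del and blue is BRCA1flox. The BRCA1del points lie above both BRCA1flox points for rightward, blunt and first-Ter joins and below them for insertions, and the genotypes overlap in the other panels.

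The array itself held 48.4% and 47.9% of all joins in BRCA1del runs C and D and 44.9% and 54.8% in BRCA1flox, which overlapped, and BRCA1del run B had 60.4%. Joins left of the array made up 12.6% (75 of 593) and 11.5% (19 of 165) in BRCA1del and 18.96% (117 of 617) and 18.4% (48 of 261) in BRCA1flox, and BRCA1del run B had 12.7% (75 of 589). These 3 BRCA1del libraries all lay below the 2 BRCA1flox libraries. Part of that gap came from joins that ran rightward, toward the array: 8 and 4 joins in BRCA1del runs C and D, 1.35% and 2.42% of all joins, against 40 and 13 in BRCA1flox, 6.48% and 4.98%. BRCA1del run B had 19, or 3.23%, between the values of the other libraries of its genotype and those of BRCA1flox. Joins to the right of the array, in the right part of EGFP, were few in every library, with 10, 6 and 1 in BRCA1del runs B, C and D and 26 and 5 in BRCA1flox. The last 2 counts were singled out after they were seen and were not tested.

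The planned measure, the share of leftward body joins that lay left of the array, did not differ between the genotypes beyond counting error. It was 16.0% (56 of 351), 21.3% (67 of 314) and 18.5% (15 of 81) in BRCA1del runs B, C and D and 22.1% (77 of 348) and 20.6% (35 of 170) in BRCA1flox. The mean difference in shared runs was -1.43 points (odds ratio 0.936, 95% interval 0.667 to 1.31; adjusted p = 0.742, exact conditional test). With all body joins as the denominator, which brings in the rightward joins, the difference was -6.39 points and passed (adjusted p = 0.0105, exact conditional test). Within that stretch the leftward joins of BRCA1del sat close to the array in run C, at a median of 42 bp from it against 221 bp in BRCA1flox. In run D the medians were 217 bp over 15 joins and 228 bp over 35 joins, so the gap of run C was not seen there. BRCA1del run B, which had no BRCA1flox library beside it, had a median of 31 bp over 56 joins.

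**Figure D2:**
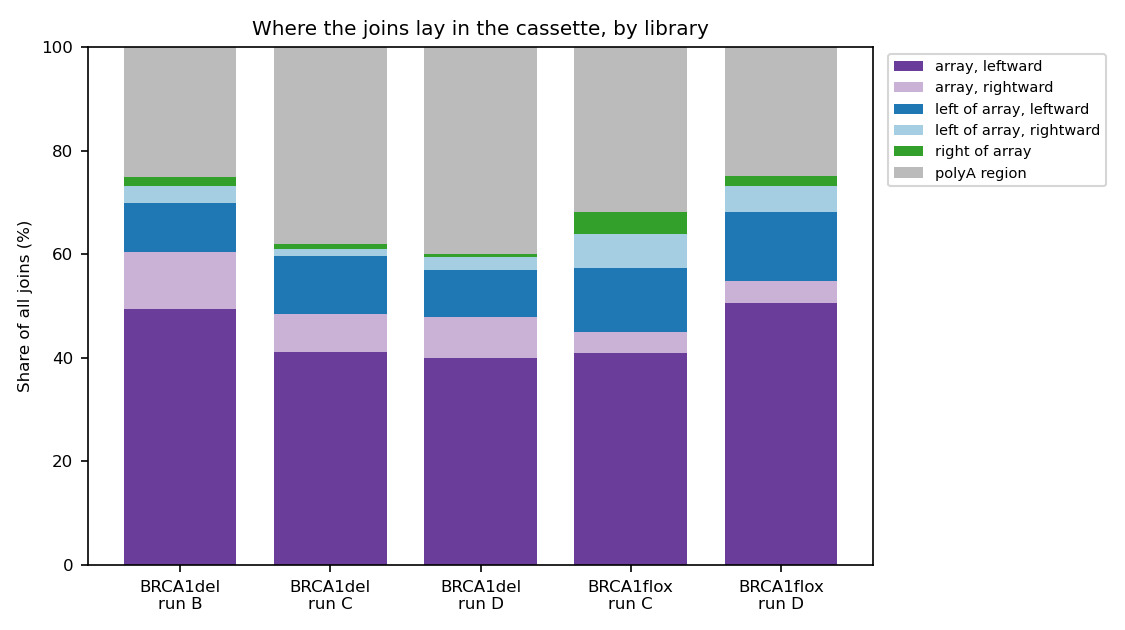
Stacked bars give the percent of all joins of each library by region of the cassette and orientation. The light blue segment, rightward joins left of the array, is 1.35% to 3.23% in BRCA1del and 4.98% to 6.48% in BRCA1flox, and the grey polyA segment is largest in BRCA1del run D at 40%.

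Among array joins, those that ran rightward were more frequent in BRCA1del. Rightward joins made up 18.3% (65 of 356), 14.98% (43 of 287) and 16.5% (13 of 79) of array joins in BRCA1del runs B, C and D. In BRCA1flox they made up 9.03% (25 of 277) in run C and 7.69% (11 of 143) in run D. Every BRCA1del library lay above both BRCA1flox libraries. In shared runs the means were 15.7% ± 1.04 and 8.36% ± 0.943 (SD, n = 2 libraries each), a difference of 7.36 points, and the odds ratio was 1.92 (95% interval 1.20 to 3.10; adjusted p = 0.0078, exact conditional test). Neither run passed alone, with 5.96 points in run C (adjusted p = 0.0608) and 8.76 points in run D (adjusted p = 0.183, exact conditional tests), and with each position and strand counted once per library the difference was 6.97 points (adjusted p = 0.0912, exact conditional test).

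A read that ended inside the array could match either of its repeats, since a unit of 116 bp recurs in it and Ter elements 1 and 4 lie 117 bp apart. Positions are therefore given for joins whose read reached at least 20 bp of the flank it ran toward, called uniquely placed. For leftward joins these were 244 of 291, 188 of 244 and 47 of 66 in BRCA1del runs B, C and D and 169 of 252 and 102 of 132 in BRCA1flox runs C and D. For rightward joins they were 36 of 65, 22 of 43 and 7 of 13 in BRCA1del and 5 of 25 and 5 of 11 in BRCA1flox.

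Leftward joins gathered at the left end of the array, and lay nearer to that end in BRCA1del. Their median position was 3068, 3066 and 3065 in BRCA1del runs B, C and D, all inside Ter element 1. In BRCA1flox it was 3071 in run C, the last base of Ter element 1, and 3082 in run D, inside Ter element 2. Joins up to the last base of Ter element 1 were 54.5% (133 of 244), 61.7% (116 of 188) and 74.5% (35 of 47) of placed leftward joins in BRCA1del runs B, C and D. The same share was 53.3% (90 of 169) in BRCA1flox run C and 28.4% (29 of 102) in run D. BRCA1del run B lay barely above BRCA1flox run C, so the groups were only just apart.

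Across the shared runs that share was 68.1% ± 9.03 in BRCA1del and 40.8% ± 17.55 in BRCA1flox (SD, n = 2 libraries each; odds ratio 2.13, 95% interval 1.46 to 3.12; adjusted p = 0.000205, exact conditional test). The size of the difference was not the same in the 2 runs, 8.45 points in run C and 46.0 in run D (Zelen's exact test of equal odds ratios, adjusted p = 0.00268). Run C alone did not pass (adjusted p = 0.125, exact conditional test). Joined stretches were shorter in BRCA1del run D, with a median aligned length of 106.5 bp over leftward array joins, than in BRCA1flox run D, with 174.5 bp, while run C had 130 and 123 bp. A short stretch can be placed only if its join is near the flank, and the part of this length gap in the result was not tested. With unplaced joins included at their listed position the difference was 21.7 points (adjusted p = 4.1e-05, exact conditional test). With the limit set at the third Ter element it was 4.26 points (adjusted p = 0.672), and before the first Ter element 11 points (adjusted p = 0.0765, exact conditional tests).

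**Figure D3:**
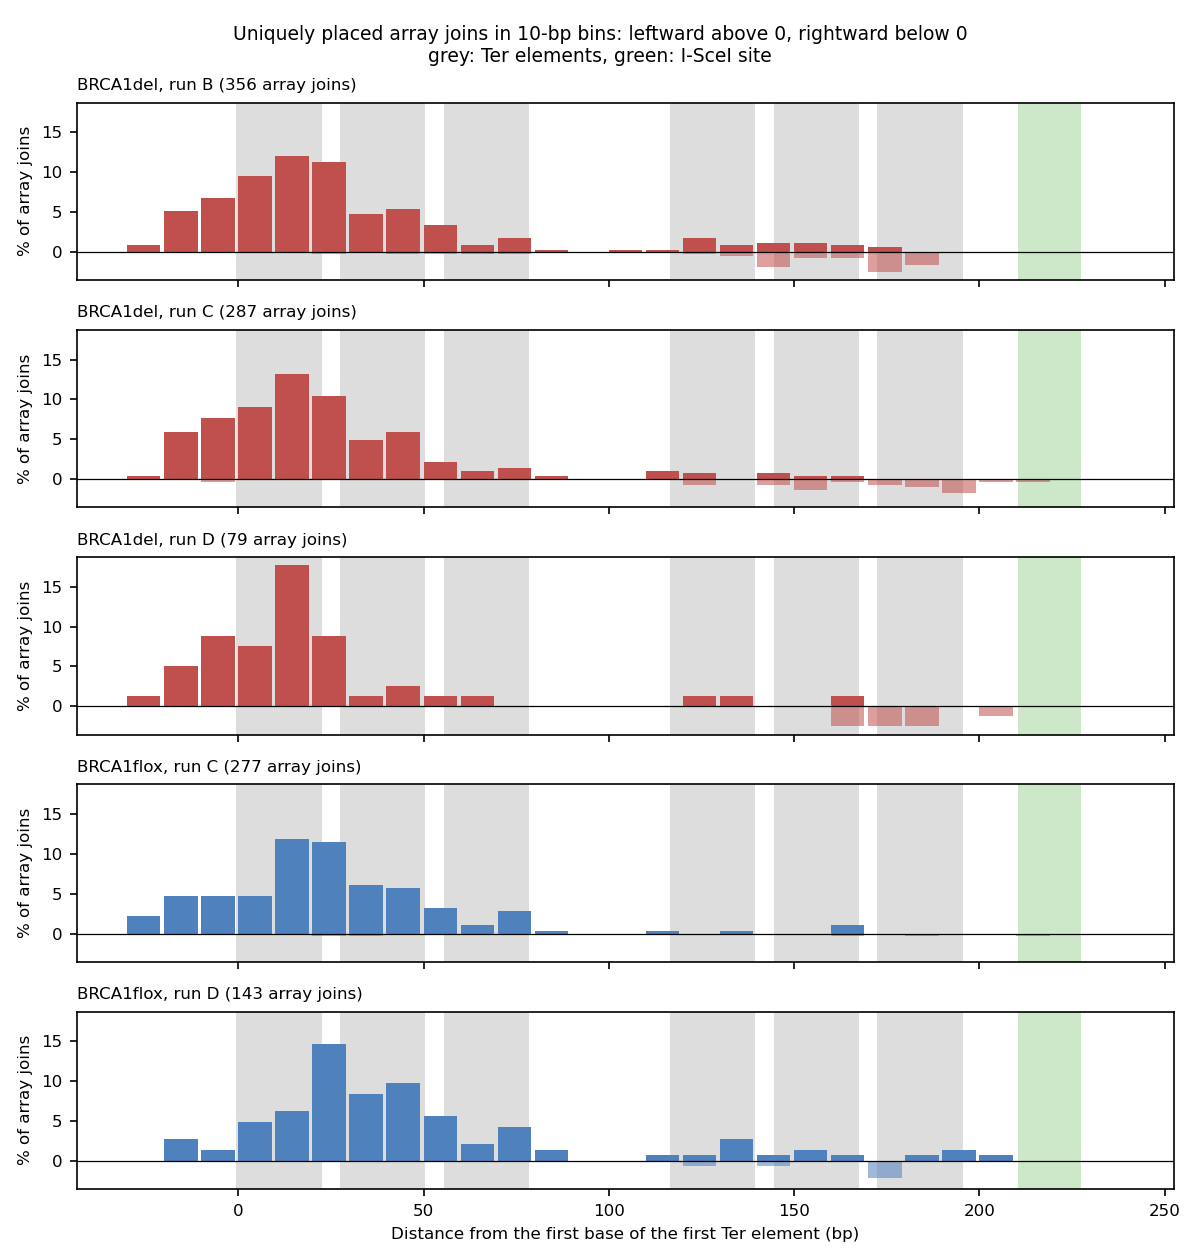
Bars give uniquely placed array joins in 10-bp bins as a percent of all array joins of the library, by distance in bp from the first base of the first Ter element; bars above 0 are leftward and bars below 0 are rightward joins. Leftward joins crowd over the first 2 Ter elements in all 5 libraries, with BRCA1flox run D shifted to the right. Placed rightward joins, which had to be read into the right flank, lie mostly over the last 2 elements.

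Taken element by element over runs C and D, placed leftward joins fell in Ter element 1 in 42.1% of cases in BRCA1del (99 of 235) and 29.9% in BRCA1flox (81 of 271). Ter element 2 held 18.3% (43 of 235) and 26.2% (71 of 271), and Ter element 3 held 4.68% (11 of 235) and 8.86% (24 of 271). Ter elements 4, 5 and 6 held 2.13%, 1.28% and 0% (0 of 235) in BRCA1del and 2.58%, 2.58% and 1.11% in BRCA1flox. The stretch of the window before Ter element 1 held 22.1% (52 of 235) and 14.02% (38 of 271). No placed leftward join lay in the I-SceI site, 0 of 235 and 0 of 271. Among placed joins a count of 0 allows a share of up to 1.28% in BRCA1del and 1.11% in BRCA1flox, from 3 counts of the total. That limit covers counting error only, since a leftward join there must be read across the whole array to be placed. With unplaced joins at their listed position, the I-SceI site held 2 of 244 leftward joins in BRCA1del run C and 0 of 291 in run B. Ter element 6 held 3 of 244 and 7 of 291. These counts with unplaced joins are from BRCA1del runs B and C only, so they do not compare the genotypes. The lower share at Ter element 2 in BRCA1del held in both runs, with 19.7% against 24.3% in run C and 12.8% against 29.4% in run D. Single elements were not tested.

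Placed rightward joins, which are those read into the right flank, lay mostly at the opposite end of the array. Over runs C and D, BRCA1del had 8 of 29 in Ter element 5, 11 of 29 in Ter element 6, 5 of 29 just after it and 1 in the I-SceI site, and BRCA1flox had 2 of 10, 3 of 10, none and 1. Ter element 4 held 2 of 29 and 1 of 10, Ter elements 1 and 3 held none in either genotype, and Ter element 2 held none of 29 and 1 of 10. Their medians were 3226 in BRCA1del and 3217 in BRCA1flox. Only 10 placed rightward joins came from BRCA1flox, too few for a comparison of positions. The requirement that a read reach the flank favours joins near the flank it runs toward, for both orientations. Without that requirement, Ter elements 1, 2 and 3 held 5, 3 and 6 of the 43 rightward joins of BRCA1del run C. Ter elements 4, 5 and 6 held 2, 7 and 8. In BRCA1del run B the same elements held 7, 9 and 12, and 3, 12 and 15, of 65. No such counts are given for BRCA1flox, so the genotypes are not compared on them. The listed position of an unplaced join may be that of the other repeat.

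Blunt joins, with neither shared nor inserted bases, were more frequent among array joins in BRCA1del. They made up 22.3% (79 of 354), 23.2% (66 of 285) and 12.7% (10 of 79) of array joins with a called structure in BRCA1del runs B, C and D. In BRCA1flox they were 8.66% (24 of 277) in run C and 6.34% (9 of 142) in run D. All 3 BRCA1del libraries lay above both BRCA1flox libraries, although the Wilson interval of BRCA1del run D, from 7.02% to 21.8%, held the value of BRCA1flox run C. In shared runs the means were 17.9% ± 7.42 and 7.501% ± 1.645 (SD, n = 2 libraries each), a difference of 10.4 points. The odds ratio was 2.91 (95% interval 1.85 to 4.67; adjusted p = 9e-06, exact conditional test). Run D alone, at 6.32 points, did not pass (adjusted p = 0.214, exact conditional test), while run C alone did at 14.5 points (adjusted p = 2.5e-05, exact conditional test).

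Microhomology, counted from 2 shared bases, was less frequent in BRCA1del within each shared run. It was found in 39.5% (140 of 354), 34.0% (97 of 285) and 53.2% (42 of 79) of array joins in BRCA1del runs B, C and D and in 44.8% (124 of 277) and 59.2% (84 of 142) in BRCA1flox runs C and D. Both genotypes were higher in run D than in run C, so the libraries overlapped when the run was ignored. The mean difference was -8.36 points (odds ratio 0.675, 95% interval 0.499 to 0.911; adjusted p = 0.0107, exact conditional test), and it was -10.7 in run C and -5.99 in run D, of which run D alone did not pass (adjusted p = 0.532, exact conditional test).

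That result moved with the minimum number of shared bases. Exactly 3 shared bases were seen in 7.97% of BRCA1del joins (29 of 364) and 14.6% of BRCA1flox joins (61 of 419) over runs C and D, and exactly 4 in 6.04% and 10.7%. Exactly 2 shared bases gave 20.3% and 21.0%, close to each other, and 1 shared base gave 26.9% (98 of 364) and 18.6% (78 of 419), higher in BRCA1del. With 3 or more bases required the difference was -13.35 points (adjusted p = 0.00139), with 4 or more -6.22 (adjusted p = 0.16), and with 1 or more only -0.216 (adjusted p = 0.742, exact conditional tests). No array join shared more than 7 bases. Stretches of 6 or 7 bases were rare in both genotypes, 10 of 364 and 11 of 419.

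Insertions were less frequent in BRCA1del. Joins with at least 1 inserted base made up 15.3% (54 of 354), 15.4% (44 of 285) and 8.86% (7 of 79) in BRCA1del runs B, C and D and 27.1% (75 of 277) and 17.6% (25 of 142) in BRCA1flox runs C and D. Every BRCA1del library lay below both BRCA1flox libraries. The shared-run means were 12.2% ± 4.65 and 22.3% ± 6.70 (SD, n = 2 libraries each), a difference of -10.2 points (odds ratio 0.486, 95% interval 0.326 to 0.717; adjusted p = 0.000427, exact conditional test). Run D alone gave -8.75 points and did not pass (adjusted p = 0.214, exact conditional test).

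Inserted stretches were short. Their median length was 2 bp, 3.5 bp and 3 bp in BRCA1del runs B, C and D and 5 bp and 3 bp in BRCA1flox runs C and D. BRCA1flox run C held most of the long ones, with 21 insertions of at least 12 bp against 5 in each of BRCA1del runs B and C and 2 in each run D library. Of these, 4 held a copy of at least 12 bp of the cassette or the bait, all in BRCA1flox run C. Those 4 copied 25 and 12 bp from the cassette and 50 and 24 bp from the bait, and none of the 12 long insertions of BRCA1del did. A base difference close to the join also reads as an insertion here, and without joins whose exact cassette match began 5 bp or more past the listed position the insertion difference was -9.52 points (adjusted p = 0.00081, exact conditional test).

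**Figure D4:**
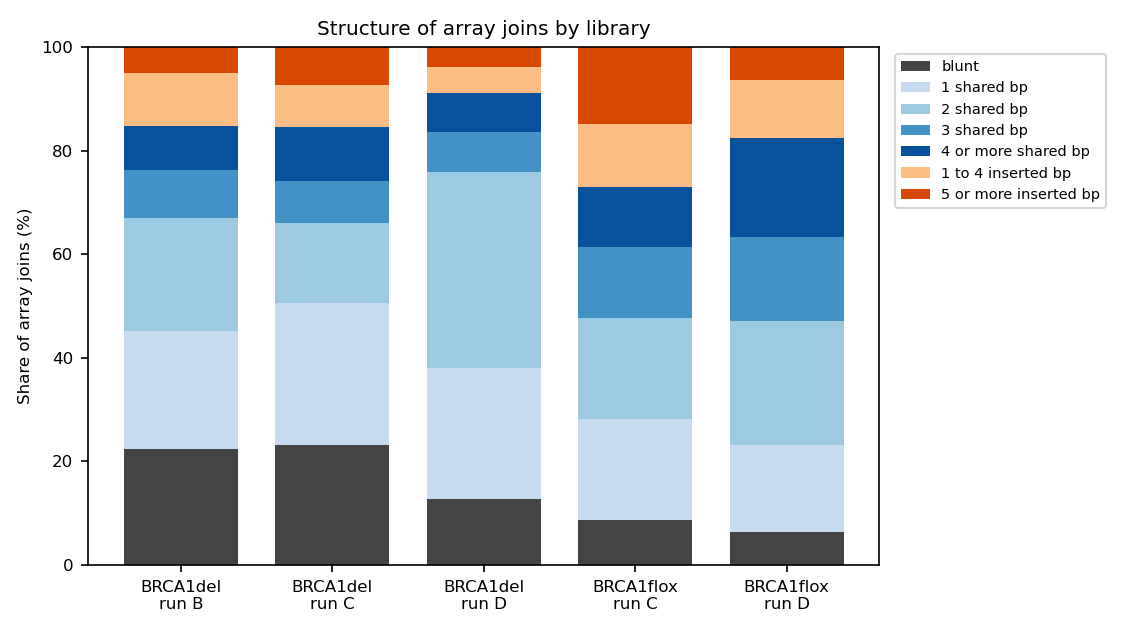
Stacked bars split the array joins of each library (percent) by structure: blunt, by number of shared bp, and by length of insertion. The black blunt segment is 12.7% to 23.2% in BRCA1del and 6.34% to 8.66% in BRCA1flox, and the orange segments for insertions sum to 8.86% to 15.4% and to 17.6% to 27.1%.

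Blunt joins were more frequent in BRCA1del among leftward joins and on both sides of the first Ter element. Leftward array joins were blunt in 24.4% and 12.1% of cases in BRCA1del runs C and D and in 8.73% and 6.87% in BRCA1flox. Rightward joins were blunt in 7 of 43 and 2 of 13 in BRCA1del and 2 of 25 and 0 of 11 in BRCA1flox, and the last count allows a share of up to 27.3%, from 3 counts of the total. Among placed leftward joins up to the end of Ter element 1, blunt joins were 42 of 150 in BRCA1del and 14 of 119 in BRCA1flox over runs C and D, or 28.0% and 11.8%. Beyond it they were 16 of 84 and 10 of 151, or 19.05% and 6.62%. Restricted to leftward joins, the tested differences were 10.45 points for blunt joins (adjusted p = 2e-05), -8.05 for microhomology (adjusted p = 0.00783) and -9.25 for insertions (adjusted p = 0.0051, exact conditional tests).

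Body joins outside the array were blunt in 18.0% of BRCA1del (18 of 100) and 10.4% of BRCA1flox joins (20 of 193) over runs C and D, 22.0% and 18.7% had insertions, and 43% and 56.5% had microhomology. In the polyA region 17.5% (45 of 257) and 15.9% (37 of 232) were blunt, 17.9% and 22.8% had microhomology, and 50.2% and 47.8% had an insertion. Among joins with a called structure, the insertion share was higher in the polyA region than in the array in both genotypes. A structure was called for 257 of 291 polyA joins in BRCA1del and 232 of 262 in BRCA1flox, against 364 of 366 and 419 of 420 array joins. A base difference close to the join also reads as an insertion, and that was checked for array joins only. These values outside the array were not tested.

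How much of the bait end was lost differed with where the limit was set. The median loss was 7, 11 and 11 bp in BRCA1del runs B, C and D and 14 and 9.5 bp in BRCA1flox runs C and D. A loss of at least 10 bp was seen in 43.8% (155 of 354), 52.3% (149 of 285) and 54.4% (43 of 79) of BRCA1del joins and in 60.3% (167 of 277) and 50.0% (71 of 142) of BRCA1flox joins. The genotypes overlapped and the runs went opposite ways, with -8.01 points in run C and 4.43 in run D (mean -1.79; odds ratio 0.827, 95% interval 0.615 to 1.11; adjusted p = 0.219, exact conditional test). At a limit of 5 bp the difference was -8.72 points and passed (adjusted p = 0.00625, exact conditional test). The bait was kept whole in 17.2% (49 of 285) and 12.7% (10 of 79) of BRCA1del joins of runs C and D and in 9.39% (26 of 277) and 2.82% (4 of 142) of BRCA1flox joins. Run B of BRCA1del had 22.0% (78 of 354) whole. These counts at no loss were looked at afterwards and not tested.

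Blunt joins had lost less of the bait than array joins in general in every library but BRCA1flox run D, which held 9 of them. Their median loss was 4 bp, 4.5 bp and 10 bp in BRCA1del runs B, C and D and 4.5 bp and 12 bp in BRCA1flox runs C and D. Rightward joins also kept more of the bait in BRCA1del, with medians of 6, 7 and 4 bp against 8, 11.5 and 15 bp for leftward joins in the same 3 libraries. In BRCA1flox the medians were 7 against 16 bp in run C and 13 against 9 bp in run D, over 25 and 11 rightward joins. These medians were not tested.

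The commonest shared bases were short, and TA and TT led in both genotypes. TA was shared in 42 of 718 array joins of BRCA1del and 19 of 419 of BRCA1flox over all their libraries, or 5.85% and 4.53%. TT was shared in 32 and 16 joins, 4.46% and 3.82%. AC and ACTT were each shared in 15 joins of BRCA1del and 13 of BRCA1flox, or 2.09% and 3.10%, and CT in 15 and 9. ACTT stands 3 bases before the cut in the bait, and all joins through it were leftward and inside a Ter element. The joins through CT used the last 2 bases of the bait in 14 of 15 and 8 of 9 cases.

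Shared stretches of at least 6 bases were few. The run TTTAGTT, shown above, occurs 1 time in the bait, 32 bases before the cut, and 1 time in the other strand of each Ter element, and nowhere else in the cassette body. It was used in 10 BRCA1del joins (3 in run B, 6 in run C and 1 in run D) and in 5 BRCA1flox joins (2 in run C and 3 in run D), all leftward, or 1.39% and 1.19% of array joins. GTAACT, which the bait holds 4 bases before the cut, was used in 6 BRCA1del and 5 BRCA1flox joins, all rightward and inside a Ter element. GATATAT, the next in frequency of at least 6 bases, was used in 1 join of each genotype, neither of them inside a Ter element. These stretches were singled out after their counts were seen.

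The last comparison set the genotype difference with siBLM beside that with siLuciferase, the control siRNA, in runs C and D, which hold all 4 groups. The siLuciferase libraries are a separate set, so the 2 differences share no control samples. With siLuciferase, rightward joins were 7.78% (21 of 270) and 13.75% (22 of 160) of array joins in BRCA1del runs C and D and 1.84% (9 of 490) and 1.29% (2 of 155) in BRCA1flox. The odds ratio was 6.004 (95% interval 2.98 to 13.1), against 1.92 with siBLM. The ratio of the odds ratios, siBLM over siLuciferase, was 0.319 (95% interval 0.141 to 0.720; adjusted p = 0.00859 over 4 shares, likelihood-ratio test in a binomial model of junction counts). In percentage points the genotype differences were 9.2 with siLuciferase and 7.36 with siBLM. BRCA1flox moved from 1.29% to 1.84% of array joins with siLuciferase to 7.69% to 9.03% with siBLM, and in run C BRCA1del moved from 7.78% to 14.98%, while in run D it stood at 13.75% and 16.5%. Neither run passed alone, with ratios of 0.394 in run C (adjusted p = 0.0827) and 0.194 in run D (adjusted p = 0.0727, likelihood-ratio tests in the binomial model).

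The body share also differed less between the genotypes with siBLM. With siLuciferase it was 59.6% (340 of 570) and 71.1% (180 of 253) in BRCA1del runs C and D and 77.4% (722 of 933) and 87.1% (216 of 248) in BRCA1flox. The genotype difference was -16.8 points with siLuciferase (odds ratio 0.418, 95% interval 0.339 to 0.515) and -10.55 with siBLM. The ratio of the odds ratios was 1.65 (95% interval 1.24 to 2.21; adjusted p = 0.0027, likelihood-ratio test in the binomial model). Run D alone gave 1.36 and did not pass (adjusted p = 0.439), while run C alone gave 1.78 (adjusted p = 0.00242, likelihood-ratio tests in the binomial model).

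For the structure of array joins the difference between siRNAs did not pass over both runs. Microhomology with siLuciferase was 42.8% (115 of 269) and 37.5% (60 of 160) in BRCA1del runs C and D and 44.0% (215 of 489) and 68.4% (106 of 155) in BRCA1flox, and the ratio of the odds ratios was 1.04 (95% interval 0.705 to 1.52; adjusted p = 0.862, likelihood-ratio test in the binomial model). The runs went opposite ways, with a ratio of 0.669 in run C (adjusted p = 0.0827) and 2.83 in run D, which passed alone (adjusted p = 0.0192, likelihood-ratio tests in the binomial model). In percentage points the genotype difference was -16.05 with siLuciferase and -8.36 with siBLM. Blunt joins with siLuciferase were 15.6% (42 of 269) and 19.4% (31 of 160) in BRCA1del and 9.82% (48 of 489) and 7.10% (11 of 155) in BRCA1flox, with a ratio of 1.44 (95% interval 0.810 to 2.56; adjusted p = 0.282, likelihood-ratio test in the binomial model). The runs went opposite ways here too, with a ratio of 1.87 in run C (adjusted p = 0.0827) and 0.681 in run D (adjusted p = 0.527, likelihood-ratio tests in the binomial model). The genotype odds ratio of blunt joins was 2.91 with siBLM and 2.02 with siLuciferase, in the same direction.

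**Figure D5:**
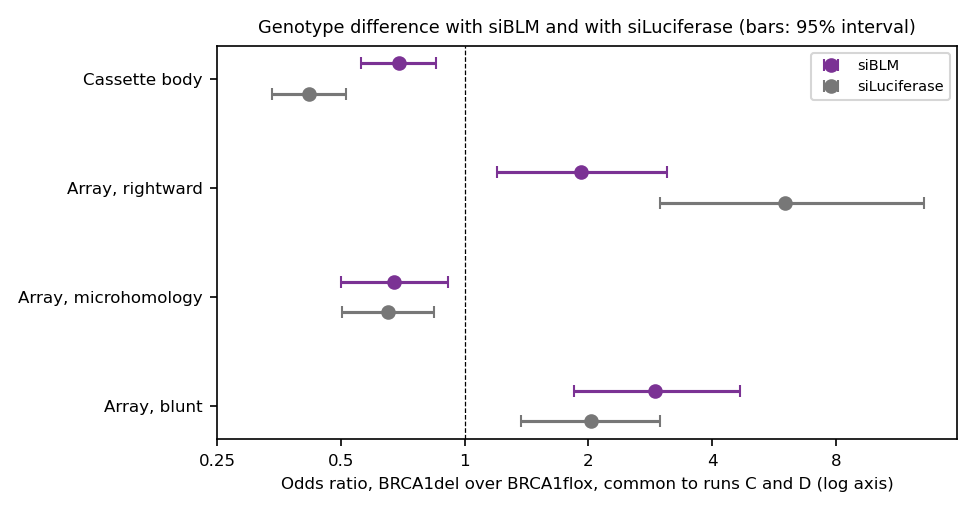
Points give the odds ratio of BRCA1del over BRCA1flox common to runs C and D for 4 shares, with siBLM in purple and siLuciferase in grey, on a log axis with 95% intervals and a dashed line at 1. The intervals all lie on one side of 1, and the siBLM point is nearer to 1 than the siLuciferase point for rightward joins (1.92 against 6.004) and for the cassette body (0.691 against 0.418).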

How the data were processed

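Each group has a table that lists its junctions one by one, and the other values used, position, strand and alignment ends, are as deposited by the authors. The aligner Bowtie2 and the build mm9 come from the submitters' processing notes. How reads were filtered and duplicates removed was not given in those notes, the labels or the files. Positions are those of the cassette, not of mm9. The members, the shares and the lists were chosen with earlier results of these data known. The library is the sequencing run in the read name, since the tables pool a group's samples and carry no replicate number. The runs were named B to D, and nothing ties a run to a labelled replicate, so p-values measure counting error and the spread between libraries may be technical.

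The cassette and the bait were read off the deposited reads by majority vote in 5 passes. Reads had 1 base more than the deposited coordinates after the last Ter element in 297 of 299 reads spanning it, and it was put in for the structure calls. Bait and cassette parts were extended from exact seeds of 10 and 12 bp, taking the cassette match nearest the bait. Bases in both parts are microhomology, and bases in neither are an insertion. Letters of the cassette and of the Ter element are not printed. The caller and the tests were tested on simulated data.

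Of the 8 shares, each was tested over runs C and D with the exact conditional test of a common odds ratio (two-sided), with Benjamini-Hochberg adjustment over the 8, a threshold of 0.05 and Zelen's exact test between runs. The siRNA comparison was a likelihood-ratio test in a binomial logistic model (statsmodels 0.14.6, Python 3.11.15), adjusted over 4 shares. Amplified reads are not independent molecules. Named were every Ter element and the I-SceI site, the 3 joins listed most often per genotype with ties by position, and the 3 commonest microhomologies of at least 2 bp with ties. Alternatives are given in the closing section.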

Additional observations from a re-analysis of the deposited data

Results flagged for a closer look

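On the scale of odds ratios, the genotype difference with siBLM differed from that with siLuciferase for 2 of 4 shares. The difference itself was tested. For rightward array joins the ratio of the odds ratios, siBLM over siLuciferase, was 0.319 (adjusted p = 0.00859, likelihood-ratio test in a binomial model of junction counts). On the siLuciferase side BRCA1flox held 11 rightward joins, 9 in run C and 2 in run D. In percentage points the genotype differences in rightward joins were 7.36 with siBLM and 9.2 with siLuciferase. Run C alone gave a ratio of 0.394 and run D alone 0.194. For the share of joins in the cassette body the ratio was 1.65 (adjusted p = 0.0027, likelihood-ratio test in the binomial model). BRCA1flox lay lower with siBLM than with siLuciferase in both runs, 68.1% against 77.4% in run C and 75.1% against 87.1% in run D. BRCA1del lay lower with siBLM in run D (60% against 71.1%), but not in run C (62.1% against 59.6%). Run C alone gave a ratio of 1.78 and run D alone 1.36. No group held the 4 samples or more that a search for outlying samples needs.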

How the results depend on the processing

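No paired analysis was possible because the tables carry no replicate number, and the sequencing run was used as the stratum instead. Of 93 values under alternatives, 79 planned and 14 chosen after seeing the data, 68 kept their direction and their side of the threshold. Some of the 68 could hardly change. Ending the body with EGFP gave the same body share difference, -10.55, and counting an exact join once per library removed few joins, since nearly all were listed once. Differences below are BRCA1del minus BRCA1flox in percentage points. With all libraries pooled over runs, the body share was -2.75 and no longer passed and bait loss was -8.47 and passed. Leaving out a run gave -15.1 to -6.01 for the body share, -2.07 to -0.789 for joins left of the array, 5.96 to 8.76 for rightward joins, -10.7 to -5.99 for microhomology, 6.32 to 14.5 for blunt joins, -11.6 to -8.75 for insertions, 8.45 to 46.0 for the first Ter element and -8.01 to 4.43 for bait loss, which turned without run C. No longer passing were, without run C, rightward joins, microhomology, blunt joins and insertions, and, without run D, the body share, rightward joins and the first Ter element. Fewer joins entered each of those fits.

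Counting a position and strand only once per library gave a rightward difference of 6.97, which did not pass. With all body joins as denominator the left-of-array difference was -6.39 and passed. Microhomology of at least 1 bp gave -0.216 and of at least 4 bp -6.22, neither passing, and the first-Ter difference was 11 before the first and 4.26 up to the third Ter element, neither passing. Bait loss of at least 5 bp gave -8.72 and passed, and among leftward joins only it turned to 0.299. For these the cause was not tested.

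For the ratio of odds ratios between siRNAs, leaving out a run gave 0.194 to 0.394 for rightward joins, neither passing, 1.36 to 1.78 for the body share, not passing without run C, 0.669 to 2.83 for microhomology, which turned without run D and passed without run C, and 0.681 to 1.87 for blunt joins, which turned without run C. Pooled over runs, the microhomology ratio turned to 0.887. The cause was not tested. Depth limits most the libraries of run D, where BRCA1del held 165 joins and 79 array joins.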

Other observations

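Leftward joins inside a Ter element were spread along it, and the base that held most differed between libraries, also within BRCA1del. It was base 17 in BRCA1del run B (18 of 207), base 15 in run C (14 of 166) and base 1 in run D (5 of 47). Over runs C and D, bases 1, 15 and 18 of the element each held 16 of 213 such joins in BRCA1del, or 7.51%. In BRCA1flox bases 22 and 23 held most, 27 and 26 of 280 joins, or 9.64% and 9.29%, and base 17 held 20 of 280, or 7.14%. Bases count from 1 at the left end of the element, the joins of all 6 elements were pooled, and these values were not tested.

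Large losses of the bait end were more frequent in BRCA1flox in run C, and only slightly so in run D. A loss of at least 32 bp was seen in 14.1% (50 of 354), 16.5% (47 of 285) and 24.1% (19 of 79) of array joins in BRCA1del runs B, C and D and in 29.96% (83 of 277) and 27.5% (39 of 142) in BRCA1flox runs C and D. Among leftward array joins alone, run C had 18.6% (45 of 242) in BRCA1del and 30.6% (77 of 252) in BRCA1flox. In run D these were nearly equal, 25.8% (17 of 66) and 25.95% (34 of 131), so the small gap there lay in rightward joins (2 of 13 and 5 of 11). The limit of 32 bp, which is where the run of 7 bases ends in the bait, was chosen after the data were seen, and no test was made. In the polyA region joins ran leftward more often than rightward in every library, with 82 against 66, 129 against 96 and 41 against 25 in BRCA1del runs B, C and D and 108 against 89 and 42 against 23 in BRCA1flox.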
